A study of Mus musculus with 9 samples.

Results

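The 47 genes described here encode the proteins that copy DNA and make its building blocks, and they were chosen by function as the annotated probes of 47 listed symbols. The arrays carried 87 probes for them, among 45281 probes and 19057 named genes in all. The cells studied were lymph node FRCs (fibroblastic reticular cells), a stromal cell whose network and matrix fibres form the scaffold of the node, from female C57BL/6 mice. Each array held the FRCs of 1 animal, pooled from 2 brachial lymph nodes, and each of the 3 groups had 3 arrays. The first group came from nodes draining a PBS injection, with no day given in the labels, and serves as the control. The second came from tumour-draining nodes at day 4 and the third from tumour-draining nodes at day 11. The kind of tumour, the age of the mice, any genetic alteration and the way the cells were isolated are not given in the sources used here. Their RNA, isolated by RNeasy Plus Micro columns, went through whole-transcriptome amplification (Ovation PicoSL), was given a biotin label and was hybridised to Illumina bead arrays.

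A cell licenses its origins of replication in G1 by loading the MCM helicase, fires them in S phase, and then copies the DNA with polymerases held in place by a sliding clamp. Ribonucleotide reductase and thymidylate synthase supply the deoxynucleotides, and chaperones and DNA methyltransferase restore chromatin behind the fork. Many of these genes are transcribed together at the G1/S boundary under E2F factors, so their summed RNA is widely used as a sign of cells in S phase. FRCs are largely quiescent at rest and divide as lymph nodes enlarge. In RNA from a bulk sample, more cells in S phase and more RNA per such cell cannot be told apart.

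Levels are log2 normalised intensities, and a change is a difference between group means on that scale with the standard error of the limma fit. Only probes that 3 or more of the 9 arrays detected, at a detection p below 0.01, entered the tests, and an adjusted p under 0.05 was the threshold. Between 9606 and 17627 probes were detected per array, and the day 11 arrays had the 2 lowest counts. All 15 FRC markers checked were tested and 13 of them were detected on every array. Their summed linear intensity spanned 31886 to 35821 in PBS, 35466 to 38286 at day 4 and 32418 to 36772 at day 11. Levels of different probes are not compared with each other, since each probe binds with its own strength.

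The upstream DNA of these genes is shown for 4 members whose RNA had an unadjusted p under 0.05 at day 11, to give the letters that E2F factors and the CCAAT-binding factor NF-Y are known to read. Rrm2 was taken for its low p, and Mcm5, Mcm6 and Uhrf1 because they hold E2F words. All 4 were chosen after these values were seen. Lig1 and Dnmt1 also had such a p and held E2F words, and are not shown. Tyms and Hmgb2 had such a p and held none. Each window is the RefSeq sequence (GRCm38.p6) from 250 bases before to 50 bases after the start of the gene, on the gene's strand. Capitals mark CCAAT or the E2F words TTTCCCGC, TTTCGCGC, TTTGCCGC and TTTGGCGC, on either strand, and words that overlap are run together.
Rrm2 (chr12:24708004-24708303, plus strand): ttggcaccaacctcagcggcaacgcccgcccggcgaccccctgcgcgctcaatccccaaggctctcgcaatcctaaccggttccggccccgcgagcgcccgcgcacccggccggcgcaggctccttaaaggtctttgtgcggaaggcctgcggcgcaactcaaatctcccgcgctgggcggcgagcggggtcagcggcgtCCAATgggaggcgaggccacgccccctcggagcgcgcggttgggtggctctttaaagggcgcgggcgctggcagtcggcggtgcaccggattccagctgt
Mcm5 (chr8:75109259-75109558, plus strand): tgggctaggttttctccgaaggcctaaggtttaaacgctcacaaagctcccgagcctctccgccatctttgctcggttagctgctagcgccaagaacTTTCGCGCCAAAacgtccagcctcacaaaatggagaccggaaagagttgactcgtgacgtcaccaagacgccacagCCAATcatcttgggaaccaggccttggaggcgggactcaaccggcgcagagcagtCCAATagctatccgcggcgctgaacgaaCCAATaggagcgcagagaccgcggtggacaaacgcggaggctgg
Mcm6 (chr1:128359656-128359955, minus strand): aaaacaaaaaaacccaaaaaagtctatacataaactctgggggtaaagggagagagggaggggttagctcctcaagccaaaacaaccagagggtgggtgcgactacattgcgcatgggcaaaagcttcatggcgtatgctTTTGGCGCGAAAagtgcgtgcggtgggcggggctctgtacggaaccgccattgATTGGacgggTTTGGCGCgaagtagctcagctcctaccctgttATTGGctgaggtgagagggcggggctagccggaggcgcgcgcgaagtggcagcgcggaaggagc
Uhrf1 (chr17:56304063-56304362, plus strand): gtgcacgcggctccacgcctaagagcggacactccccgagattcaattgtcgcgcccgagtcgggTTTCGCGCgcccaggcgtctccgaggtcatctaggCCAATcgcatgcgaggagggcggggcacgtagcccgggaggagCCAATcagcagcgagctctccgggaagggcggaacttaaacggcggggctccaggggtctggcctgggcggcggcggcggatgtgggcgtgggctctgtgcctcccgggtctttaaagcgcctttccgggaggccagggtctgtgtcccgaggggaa
Mcm5 held a pair of overlapping E2F words that begin 153 and 149 bases before the start, and 3 CCAAT boxes. Mcm6 held an overlapping pair at 110 and 106 bases and a further E2F word 47 bases before the start. Uhrf1 held 1 E2F word at 185 bases, and its other RefSeq window held none. Rrm2 held a CCAAT box 50 bases before the start and none of the 4 E2F words.

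Windows were kept for 40 of the 47 genes, 48 windows in all. Any member window on an excluded chromosome was left out, while windows of that chromosome stayed among those of all genes. An E2F word was present in 13 of the 48 (27.1%), each of a different gene, against 744 of 32851 windows of all genes (2.27%). CCAAT was present in 28 of the 48 (58.3%), against 37.4% of all windows. Member windows were also richer in G and C, with a median of 62.5% against 52.7%. A match is a description of the letters and not of binding, and the part of base composition in these shares was not tested.

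Of the 47 genes, 15 had a probe detected on all 9 arrays, 15 on 3 to 8, 10 on 1 or 2 and 7 on none. The 30 genes of the first 2 classes were tested and the other 17 were not. Those never detected were Mcm10, Cdc45, Pola1, Pole, Dut, Asf1b and Hells. Each PBS array detected between 20 and 29 of the 47, each day 4 array between 27 and 35 and each day 11 array between 19 and 33. The array with the fewest, day 11 replicate 1, also detected few probes in all, 11218. The tested probes of Mcm3 and Tyms were detected on no PBS array, so they passed the filter through the tumour groups.

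**Figure D1:**
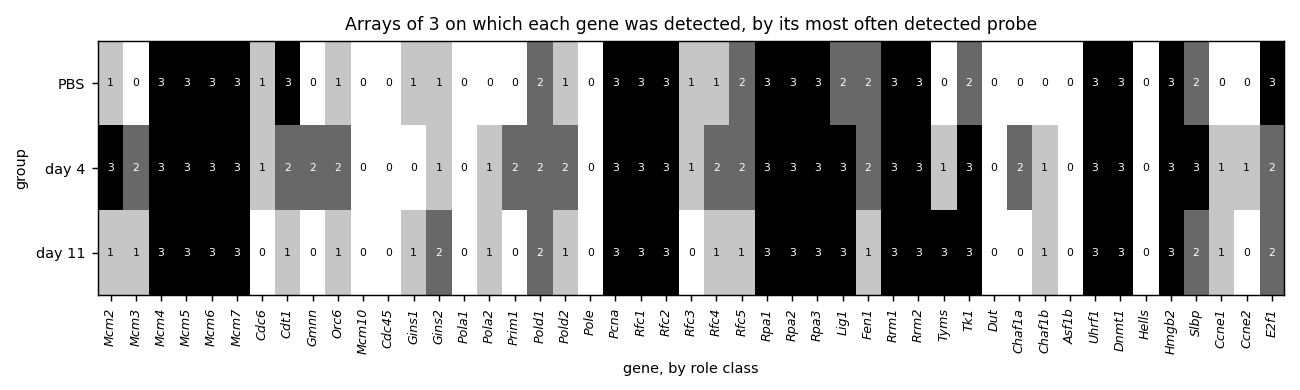
Number of arrays, out of 3 in each group, on which the most often detected probe of each of the 47 genes had a detection p under 0.01. The 15 genes detected on all 9 arrays stand beside 7 that no array detected.

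No tested member passed the threshold in any comparison. At day 4 the smallest adjusted p over the members, each read by its probe with the highest mean, was 0.490 (limma, Rrm2), and 0 of all 8819 genes tested (0%) passed. At day 11 it was 0.222 (limma, Rrm2) against PBS and 0.638 (limma, Rrm1) against day 4. Over all 43 tested probes of the members the smallest was 0.327 (limma, Lig1) at day 4, 0.215 (limma, Rrm2) at day 11 against PBS and again 0.638 against day 4. In each comparison of day 11, 1 gene passed, Ighg1, an immunoglobulin heavy chain that is not a member, which is 0.0113% of the genes tested. With an unadjusted p under 0.05, 705 genes were found at day 4 against PBS, 904 at day 11 against PBS and 569 at day 11 against day 4. What follows therefore describes levels and their spread, and names no member as changed. Both tumour groups were compared with the same PBS arrays.

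At day 4, 24 of the 30 tested members had a mean above PBS, with a median log2 change of 0.35. Over the 28 read by a probe that a PBS array detected, changes ran from -0.81 (Cdt1) to 0.87 (Rrm2). Over all genes 53.8% had a mean above PBS and the median was 0.04. The groups did not overlap for 4 members, Mcm2, Pcna, Lig1 and Rrm2, all higher at day 4 (13.3%, where 6.23% of all genes were higher without overlap). Mcm2 was detected on all 3 day 4 arrays but on only 1 array of each other group. It passed the filter only through day 4, so it adds no support here. An unadjusted p under 0.05 was found for 2 members, Rrm2 and Lig1, both higher, which is 6.67% against 4.72% of all genes and so near the background. No member was lower without overlap (4.31% of all genes) or lower with such a p (3.28%). The median was 0.16 without day 4 replicate 2 and 0.21 without PBS replicate 1.

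At day 11, 26 of the 30 had a mean above PBS, with a median of 0.61, where 54.1% of all genes were above PBS with a median of 0.05. Over the 28 read by a probe that a PBS array detected, changes ran from -0.73 (Cdt1) to 1.70 (Mcm5). The day 11 arrays lay above all PBS arrays for 10 members (33.3%, against 10.9% of all genes), namely Mcm3, Mcm5, Mcm6, Rfc2, Lig1, Rrm1, Rrm2, Tyms, Uhrf1 and Hmgb2. No member lay below PBS without overlap (7.26% of all genes) or was lower with an unadjusted p under 0.05 (4.07%). An unadjusted p under 0.05 was found for 8 members, all higher (26.7%, against 6.18% of all genes). Mcm3 and Tyms are among the 10, and Tyms is among the 8. Both passed the filter only through the tumour groups, so they add no support here. Between day 4 and day 11, 21 of the 30 had the higher mean at day 11, with a median of 0.34, where 51.5% of all genes were higher. Of these, 5 did not overlap (16.7%, against 7.9% of all genes), namely Mcm5, Rfc2, Fen1, Rrm1 and Hmgb2. Fen1 was near background, detected on 2 day 4 arrays and 1 day 11 array, and its closest pair read 5.91 and 5.96. An unadjusted p under 0.05 was found for 2 members, Rrm1 and Tyms, both higher (6.67%, against 3.11%). Tyms passed the filter only through day 11, so it adds no support to this count or to the 21. Without Mcm3 and Tyms, 20 of 28 members were higher at day 11 than at day 4, with a median of 0.34. No member was lower by either measure (7.6% and 3.35% of all genes). Without day 11 replicate 1 the median between day 4 and day 11 was 0.55. Without Mcm3 and Tyms, 22 of 28 members were above PBS at day 4 and 24 of 28 at day 11, with medians of 0.35 and 0.57. With both kept at the lower bound of their change, or at 0 where the bound was under 1-fold, the medians were 0.29 and 0.57. The day 11 median over the tested members lay between 0.46 and 0.80 when any 1 array was left out.

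**Figure D2:**
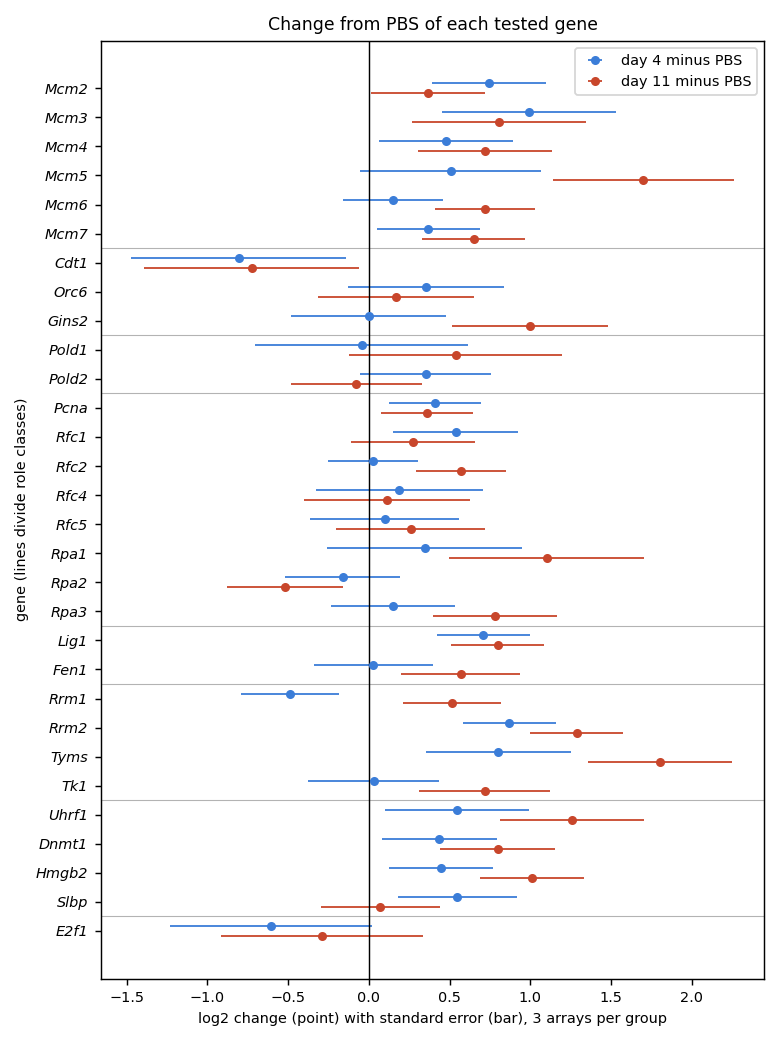
Log2 change from PBS of each tested member at day 4 and at day 11, with the standard error of the limma fit, grouped by role. Most points lie above 0 at both times, and the lowest at each time is that of Cdt1.

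The arrays of a group differed from each other in this respect. On each array the median over the 30 members of the level minus the PBS mean was -0.14, 0.11 and 0.03 in PBS, 0.29, 0.59 and 0.07 at day 4, and 0.35, 0.81 and 0.83 at day 11. Day 4 replicate 3 lay within the range of the PBS arrays, and each of the other tumour arrays lay above it. Day 11 replicate 1 lay between day 4 replicates 1 and 2. The same median over all genes stayed between -0.06 and 0.09 on every array. The median SD of a member within its group was 0.53 in PBS, 0.42 at day 4 and 0.38 at day 11, against 0.49, 0.42 and 0.30 over all genes.

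**Figure D3:**
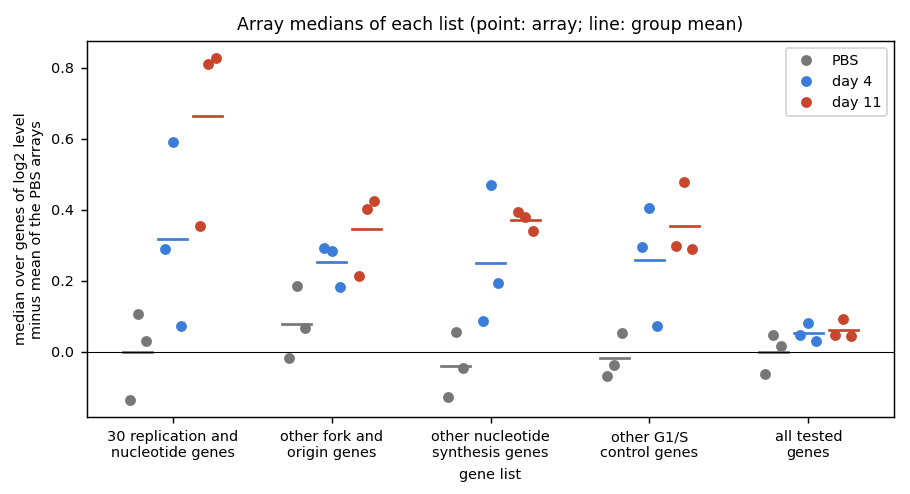
Median over the tested members of the level minus the PBS mean, one point per array, beside the same median over the 3 lists of related genes and over all genes, in log2 units. The members reach 0.83 at day 11 replicate 3, while all genes stay at or below 0.09.

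The MCM helicase, the ring of Mcm2 to Mcm7 that unwinds DNA at the fork, had every subunit tested. All 6 subunits, each read by its probe with the highest mean, had means above PBS at both times. Their median log2 change was 0.49 at day 4 and 0.72 at day 11 (0.48 and 0.72 without Mcm3). The dimmer tested probes of Mcm4 lay below PBS in mean at day 11, with changes of -0.42 and -0.08. Mcm6 measured 9.54, 9.28 and 8.96 in PBS, 9.21, 9.88 and 9.14 at day 4, and 9.70, 10.16 and 10.09 at day 11. The day 11 arrays lay above all PBS arrays, and the day 4 arrays overlapped both groups. The log2 change was 0.15 ± 0.31 (SE, n = 3 per group, limma adjusted p = 0.942) at day 4 and 0.72 ± 0.31 (limma adjusted p = 0.456) at day 11.

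Mcm5 measured 8.90, 8.18 and 6.20 in PBS, 8.13, 8.33 and 8.34 at day 4, and 9.36, 9.62 and 9.41 at day 11. The day 11 arrays were close together and above all others, while PBS replicate 3 was far below the other PBS arrays. The log2 change at day 11 was 1.70 ± 0.56 (limma adjusted p = 0.356), and across the alternative settings it ranged from 0.92 without PBS replicate 3 to 2.27 without PBS replicate 1. Mcm2 had its highest mean at day 4, with 6.21, 6.13 and 6.52 against 5.27, 5.98 and 5.38 in PBS and 5.26, 6.41 and 6.06 at day 11. Its log2 change was 0.75 ± 0.35 at day 4 (limma adjusted p = 0.649) and 0.37 ± 0.35 at day 11 (limma adjusted p = 0.738). Mcm3 was not well above background in PBS. Its day 4 arrays ran from 4.90 to 7.35 and overlapped the PBS arrays, which ran from 4.80 to 5.61. Its mean exceeded that of PBS by at least 1.18-fold at day 4 (limma adjusted p = 0.693) and by at least 1.04-fold at day 11 (limma adjusted p = 0.618). These folds set the group mean against, per PBS array, the higher of the lowest signal among detected probes and the probe's own. Mcm4 and Mcm7 had log2 changes of 0.72 ± 0.42 and 0.65 ± 0.32 at day 11 and overlapped PBS.

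Licensing and firing factors bring the helicase to the origin and switch it on. Of 8, only Cdt1, Orc6 and Gins2 were tested, and their median change was 0.17 at day 11. Cdt1, which loads MCM and is destroyed in S phase, measured 7.51, 6.55 and 7.28 in PBS, 7.99, 6.07 and 4.87 at day 4, and 5.93, 6.90 and 6.33 at day 11. The 3 groups overlapped, and the day 4 arrays alone spanned from 4.87 to 7.99. Its log2 change was -0.81 ± 0.67 at day 4 (limma adjusted p = 0.823) and -0.73 ± 0.67 at day 11 (limma adjusted p = 0.722). Gins2, a subunit of the GINS complex that activates the helicase, had a change of 0.9998 ± 0.48 at day 11 (limma adjusted p = 0.499), and its groups overlapped. Orc6, a subunit of the origin recognition complex, had changes of 0.36 at day 4 and 0.17 at day 11. Cdc6, which loads MCM with Cdt1, was not tested, and the probe detected most often read 8.34 on PBS replicate 1 and between 4.59 and 6.70 on the other arrays. Gmnn, the inhibitor of Cdt1, and Gins1 were detected on 2 arrays each.

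Of the polymerases and primase, which start and extend the new strands, only Pold1 and Pold2 of 6 were tested. Pold1, the catalytic subunit of polymerase delta, measured 4.92, 7.34 and 6.62 in PBS, 5.11, 7.20 and 6.43 at day 4, and 6.33, 6.95 and 7.21 at day 11. Replicate 1 was the lowest in every group, and the groups overlapped throughout. The log2 change was -0.04 ± 0.66 at day 4 (limma adjusted p = 0.992) and 0.54 ± 0.66 at day 11 (limma adjusted p = 0.804). Pold2, its accessory subunit, had changes of 0.35 and -0.08. The primase-polymerase alpha genes Pola1, Pola2 and Prim1 and the leading-strand polymerase Pole reached the detection limit on no more than 2 arrays each.

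The sliding clamp Pcna, its loader RFC and the single-strand binding protein RPA were represented by 8 of 9 genes. Of these 8, 7 had means above PBS at each time, with medians of 0.17 at day 4 and 0.32 at day 11. Rpa2, the middle subunit of RPA, was the exception and measured 10.73, 9.63 and 10.80 in PBS, 9.95, 10.30 and 10.43 at day 4, and 10.12, 9.66 and 9.82 at day 11. PBS replicate 2 was the lowest of all, so the groups overlapped, and the change was -0.16 ± 0.36 at day 4 (limma adjusted p = 0.948) and -0.52 ± 0.36 at day 11 (limma adjusted p = 0.626). Pcna, which tethers polymerases to DNA, measured 8.20, 7.90 and 7.85 in PBS, 8.22, 8.66 and 8.29 at day 4, and 8.57, 8.50 and 7.95 at day 11. Its day 4 arrays lay above the PBS arrays, the closest pair being 8.22 and 8.20, and the change was 0.41 ± 0.29 (limma adjusted p = 0.777) at day 4 and 0.36 ± 0.29 (limma adjusted p = 0.683) at day 11.

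Rfc2, a small subunit of the clamp loader, measured 8.66, 9.27 and 8.70 in PBS, 8.73, 8.82 and 9.16 at day 4, and 9.54, 9.42 and 9.39 at day 11. The day 11 arrays lay above both other groups with little spread, with changes of 0.57 ± 0.28 from PBS (limma adjusted p = 0.5002) and 0.54 ± 0.28 from day 4 (limma adjusted p = 0.799). Rpa1 and Rpa3, the large and small subunits of RPA, had day 11 changes of 1.10 ± 0.60 and 0.78 ± 0.38, and both overlapped PBS. The change of Rpa1 was 0.35 without PBS replicate 1, whose level of 6.52 was the lowest of its 9. Rfc1, Rfc4 and Rfc5 had day 11 changes between 0.11 and 0.27.

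Lig1 and Fen1 finish the lagging strand, Fen1 by trimming the flap of each Okazaki fragment and Lig1 by sealing the nick. Lig1 measured 6.26, 6.75 and 6.30 in PBS, 7.10, 7.17 and 7.16 at day 4, and 6.81, 7.55 and 7.34 at day 11. Every tumour array was above every PBS array. The change was 0.71 ± 0.29 at day 4 (unadjusted p = 0.0339, limma adjusted p = 0.593) and 0.80 ± 0.29 at day 11 (limma adjusted p = 0.383). Of its other tested probes, one had changes of 0.79 ± 0.43 (limma adjusted p = 0.694) and 0.81 ± 0.43 (limma adjusted p = 0.533) and overlapped PBS at both times. Another had changes of 1.80 ± 0.41 (limma adjusted p = 0.327) and 1.77 ± 0.41 (limma adjusted p = 0.235). Fen1 had changes of 0.03 at day 4 and 0.57 ± 0.37 at day 11 (limma adjusted p = 0.607).

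Of the 5 enzymes of deoxynucleotide supply, 4 were tested, and their median change was 0.42 at day 4 and 1.003 at day 11. Without Tyms, whose tested probe no PBS array detected, it was 0.03 at day 4 and 0.72 at day 11. Rrm2, the regulatory subunit of ribonucleotide reductase whose level follows S phase, measured 7.74, 7.54 and 7.35 in PBS, 8.39, 8.58 and 8.27 at day 4, and 8.40, 9.16 and 8.93 at day 11. Every tumour array was above every PBS array, and the tumour groups overlapped each other. The change was 0.87 ± 0.29 at day 4 (unadjusted p = 0.0125, limma adjusted p = 0.490) and 1.29 ± 0.29 at day 11 (unadjusted p = 0.00114, limma adjusted p = 0.222). A second Rrm2 probe measured 7.99, 6.99 and 6.93 in PBS, 8.27, 8.37 and 8.08 at day 4, and 8.75, 9.21 and 8.84 at day 11, again with every tumour array above PBS.

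Tyms, the thymidylate synthase that makes dTMP, measured 4.66, 5.13 and 4.85 in PBS, 5.37, 6.78 and 4.90 at day 4, and 6.57, 6.44 and 7.05 at day 11. The tested probe was not well above background on any PBS array, was detected on 1 day 4 array and was detected on all 3 day 11 arrays. Its day 11 level exceeded PBS by at least 1.58-fold (unadjusted p = 0.00235, limma adjusted p = 0.253). The other probes of Tyms, detected on at most 2 arrays each, were not tested and did not show this rise. Their means in PBS and at day 11 were 5.57 and 5.28, 5.64 and 5.21, 5.35 and 5.19, and 4.71 and 4.79. Tk1, the thymidine kinase of the salvage route, had changes of 0.03 at day 4 and 0.72 ± 0.41 at day 11 (limma adjusted p = 0.557). Dut, which removes dUTP, was detected on no array.

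Rrm1, the large subunit of ribonucleotide reductase, measured 8.40, 8.50 and 8.33 in PBS, 7.52, 8.46 and 7.78 at day 4, and 8.69, 9.06 and 9.02 at day 11. The day 11 arrays lay above both other groups, and 2 of the 3 day 4 arrays lay below all PBS arrays. The change was -0.49 ± 0.30 at day 4 (limma adjusted p = 0.738), 0.51 ± 0.30 at day 11 (limma adjusted p = 0.575) and 1.001 ± 0.30 between day 4 and day 11 (unadjusted p = 0.00793, limma adjusted p = 0.638). A dimmer probe annotated to the same transcript record gave another picture, with 6.19, 6.22 and 4.92 in PBS, 7.79, 7.76 and 6.91 at day 4, and 7.79, 7.81 and 7.55 at day 11. Its changes were 1.71 ± 0.40 at day 4 (limma adjusted p = 0.337) and 1.94 ± 0.40 at day 11 (limma adjusted p = 0.217). A further tested probe, annotated to a different transcript record, had changes of -0.52 ± 0.41 at day 4 (limma adjusted p = 0.811) and -0.05 ± 0.41 at day 11 (limma adjusted p = 0.973). The probes of Rrm1 thus differed in sign at day 4 and at day 11.

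Several tested probes were available for 8 members, and their changes shared a sign for 6 at day 4 and for 5 in each comparison of day 11. Lig1, Rrm2, Rfc2 and Mcm6 kept a positive sign on every tested probe at both times. The other tested probes of Mcm6 overlapped PBS at day 11, with changes of 0.98 ± 0.60 (limma adjusted p = 0.589) and 0.65 ± 0.45 (limma adjusted p = 0.628). Those of Rfc2 lay above PBS at day 11, with changes of 1.12 ± 0.45 and 1.15 ± 0.32, and the brighter of them overlapped day 4. For Rrm1 the day 11 changes from PBS ran from -0.05 to 1.94 over its tested probes. For Mcm4 the 2 dimmer probes had day 11 changes of -0.42 and -0.08 against 0.72 on the brightest. For Rpa2 the dimmer probe had a day 11 change of 0.79 ± 0.56 against -0.52 on the brightest, which is annotated to a different transcript record.

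**Figure D4:**
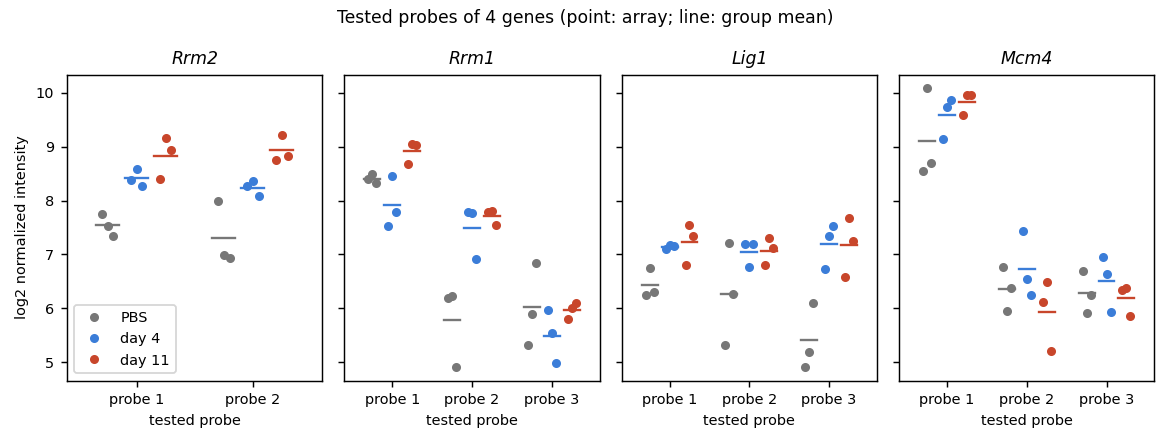
Log2 normalised intensity of every tested probe of Rrm2, Rrm1, Lig1 and Mcm4, with one point per array and a line at each group mean, for PBS, day 4 and day 11. Probe 1 of Rrm1 has its lowest mean at day 4, while probe 2 has its lowest in PBS, and both Rrm2 probes have every tumour array above PBS.

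Of the genes that rebuild chromatin behind the fork, 4 of 8 were tested, and all 4 had means above PBS at both times, with medians of 0.50 at day 4 and 0.90 at day 11. Dnmt1, which copies DNA methylation onto the new strand, measured 8.44, 8.996 and 9.56 in PBS, 9.72, 9.38 and 9.20 at day 4, and 9.35, 10.10 and 9.94 at day 11. PBS replicate 3 lay within the tumour arrays, and the change was 0.44 ± 0.35 at day 4 (limma adjusted p = 0.819) and 0.80 ± 0.35 at day 11 (limma adjusted p = 0.474). Uhrf1, which brings Dnmt1 to hemimethylated DNA, measured 7.11, 7.77 and 8.51 in PBS, 8.03, 9.13 and 7.88 at day 4, and 8.67, 9.42 and 9.08 at day 11. The day 11 arrays were above all PBS arrays and overlapped day 4, with a day 11 change of 1.26 ± 0.45 (limma adjusted p = 0.379).

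Hmgb2, a DNA-bending chromatin protein abundant in dividing cells, measured 7.12, 7.06 and 7.45 in PBS, 7.95, 7.87 and 7.16 at day 4, and 7.96, 8.67 and 8.04 at day 11. Its day 11 arrays lay above both other groups, and the day 11 change was 1.01 ± 0.32 (limma adjusted p = 0.343). Slbp, which binds the stem-loop of histone mRNA, had its highest mean at day 4, with changes of 0.55 ± 0.37 at day 4 and 0.07 at day 11. Chaf1a and Chaf1b, the subunits of the CAF-1 histone chaperone, were detected on 2 arrays each. Mcm2, Mcm5, Pcna, Rfc2, Uhrf1 and Hmgb2 are given array by array because of their values, which were seen before they were chosen.

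**Figure D5:**
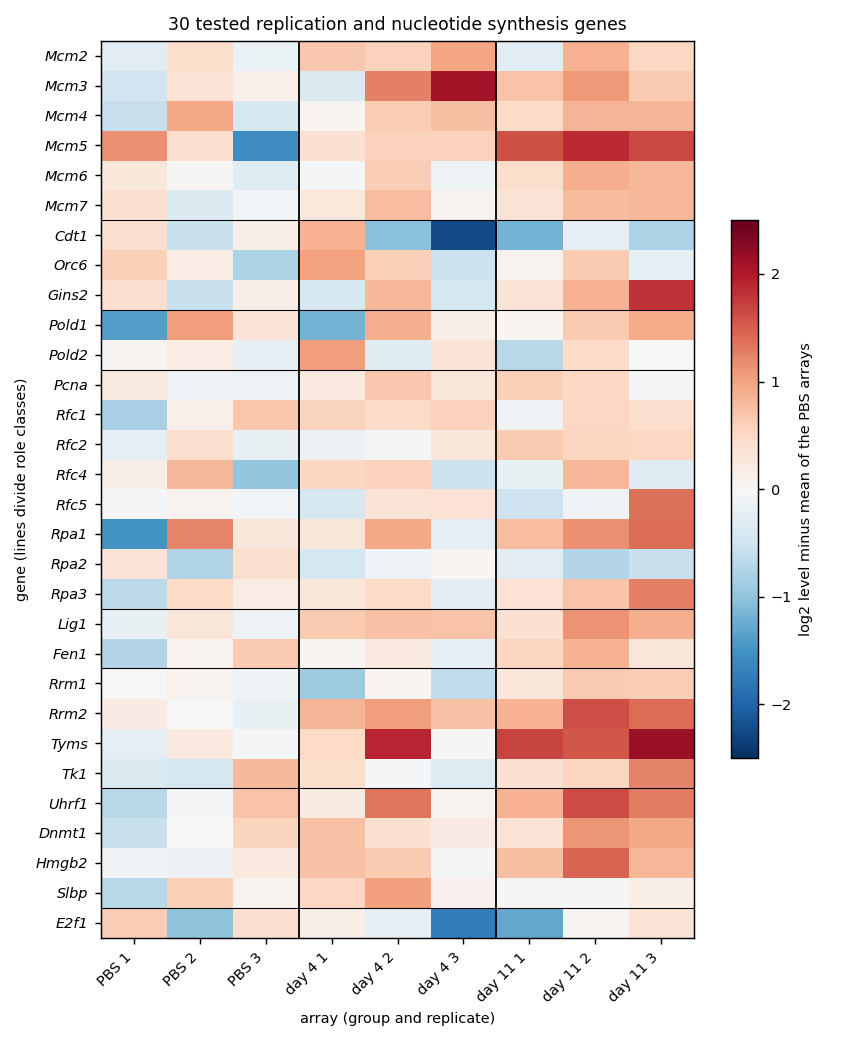
Heat map of the 30 tested members by array, where the colour gives the log2 level minus the mean of the PBS arrays, red above and blue below, and lines divide the groups and the role classes. Rrm2 and Lig1 are red on every tumour array, while Cdt1 and E2f1 are blue on some tumour arrays and red on others.

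Among the G1/S regulators only E2f1, an activating E2F factor, was tested, since the cyclin E genes Ccne1 and Ccne2 were detected on no more than 2 arrays. E2f1 measured 7.65, 6.03 and 7.44 in PBS, 7.20, 6.80 and 5.31 at day 4, and 5.75, 7.11 and 7.39 at day 11. The groups overlapped fully, with changes of -0.60 ± 0.62 at day 4 (limma adjusted p = 0.865) and -0.29 ± 0.62 at day 11 (limma adjusted p = 0.894).

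Lists of related genes in 3 groups were set beside the members, with other replication fork and origin genes (23 of 40 on the array tested), other nucleotide synthesis genes (29 of 35) and other G1/S control genes (28 of 40). None of their genes passed the threshold in any comparison. The fork and origin list had 12 higher and 11 lower at day 4 with a median of 0.11, and 16 higher and 7 lower at day 11 with a median of 0.44. The nucleotide list, most of which serves purine and pyrimidine synthesis in every cell, had 19 and 10 at day 4 and 22 and 7 at day 11, with medians of 0.20 and 0.23. The G1/S list had 16 and 12 at day 4 and 20 and 8 at day 11, with medians of 0.19 and 0.23. At day 11, 2 fork, 8 nucleotide and 5 G1/S genes were above PBS without overlap (10.9% of all genes). In the same order, 2, 6 and 5 were higher with an unadjusted p under 0.05 (6.18% of all genes). Against day 4, 1, 7 and 3 were higher at day 11 without overlap (7.9% of all genes). The nucleotide list thus shared part of the non-overlap seen for the members.

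In the fork list the lowest p belonged to Pold4, the small subunit of polymerase delta, with changes of 0.79 ± 0.29 at day 4 (limma adjusted p = 0.537) and 1.24 ± 0.29 at day 11 (limma adjusted p = 0.238). In the nucleotide list, Nme2, a nucleoside diphosphate kinase, had a day 11 change of 1.42 ± 0.36 (limma adjusted p = 0.258). In the same list Ppat, the first enzyme of purine synthesis, had a day 4 change of -1.39 ± 0.48 (limma adjusted p = 0.511). In the G1/S list E2f3, another activating E2F factor, measured 6.93, 6.54 and 6.68 in PBS, 7.84, 8.16 and 8.20 at day 4, and 7.79, 7.45 and 7.96 at day 11. Every tumour array of E2f3 was above every PBS array, where those of E2f1 overlapped, with changes of 1.35 ± 0.27 at day 4 (limma adjusted p = 0.285) and 1.01 ± 0.27 at day 11 (limma adjusted p = 0.283).

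Markers of other cells that divide in a draining node were read on the same arrays. The summed linear intensity of 4 tested germinal centre B cell markers of 7 listed spanned 2168 to 2476 in PBS, 1862 to 2659 at day 4 and 2455 to 2570 at day 11, with Rgs13 detected on no array. For 5 tested B cell markers of 9 it spanned 977 to 2054 in PBS, 1184 to 1483 at day 4 and 1038 to 1453 at day 11, with Pax5 never detected. For 5 tested T cell markers of 9 it spanned 445 to 608, 289 to 406 and 330 to 624 in the same order, with Cd5 and Cd28 never detected.

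The sum of 5 tested plasma cell markers of 8 was higher on every day 11 array, 1211 to 1861, than in PBS, 628 to 676, or at day 4, 698 to 869, with Tnfrsf17 never detected and Ighg1 the 1 marker that passed the threshold. Of these 5 markers, 4 had a higher mean at day 11 than in PBS (median change 0.64), but only 2 a higher mean at day 11 than at day 4 (median change -0.19). For 5 tested myeloid markers of 9 the sum spanned 2327 to 3187 in PBS, 1829 to 2714 at day 4 and 2692 to 3674 at day 11, with Itgam never detected. For 3 pan-leukocyte markers the sum spanned 2549 to 3084, 1498 to 2682 and 1983 to 4018, and for 4 tested blood endothelial markers of 7 it spanned 226 to 610, 248 to 417 and 286 to 422, with Cdh5 and Kdr never detected. Counted by marker, a higher mean at day 11 than in PBS was found for 4 of 4 germinal centre B cell, 3 of 5 B cell and 1 of 5 T cell markers. It was found for 4 of 5 myeloid, 3 of 3 pan-leukocyte and 2 of 4 blood endothelial markers. The median changes were 0.10, 0.39, -0.06, 0.26, 0.23 and 0.07 in that order. Of 7 pericyte and smooth muscle markers 6 were tested, and 5 of these had a mean above PBS at each time. The sum of the 6 spanned 4913 to 5266 in PBS, 5647 to 6614 at day 4 and 5078 to 5774 at day 11. The 1 tested lymphatic endothelial marker of 5 spanned 564 to 1235, 624 to 1255 and 826 to 993 in the same order. Of 6 melanocyte markers none was tested and 5 were never detected. The part of plasma cell, other leukocyte or pericyte RNA in the levels of the replication genes was not tested.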

How the data were processed

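The authors deposited a table of raw intensities on a linear scale, not normalised between arrays, with a detection p-value beside each, per the file headers and the values. The authors' processed values are intensities too, on a linear scale with the same distribution on every array, and served as an alternative. The submitters' processing notes name lumi. From the raw values, neqc of limma 3.58.1 in R 4.3.3 corrected the background from the detection p-values, added an offset of 16 and gave quantile-normalised log2 values.

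Probes with a detection p under 0.01 on at least 3 arrays were tested, 16577 probes of 8819 genes, with lmFit and eBayes over all 9 arrays. There were 6 residual degrees of freedom, and p-values were adjusted by Benjamini-Hochberg over the tested probes. The probe with the highest mean stood for a gene. Of 45281 probes, 34885 had 1 symbol, 18 several and 10378 none in the platform annotation, and gene identifiers linked 34807 to RefSeq symbols (GRCm38.p6). The pipeline was tested on simulated data. The number of arrays, 3 per group, limits the precision.

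The members and lists were chosen with earlier results of these data known. Values on every array are given for the member with the highest mean in each role class and the 2 with the lowest p in each comparison, and for others as stated. From each list of related genes, at most the 2 with the lowest p in a comparison are named. The alternatives left out the background correction, scaled arrays to their 75th percentile, used the authors' values, changed the filter, averaged a gene's probes, let the variance prior follow intensity, added a replicate block, fitted the compared groups alone or left out 1 array. Promoters were searched for exact words.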

Additional observations from a re-analysis of the deposited data

How the results depend on the processing

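No member passed the threshold in any comparison under any of the 18 alternatives, and the smallest adjusted p (limma) was 0.359 at day 4 against PBS, 0.105 at day 11 against PBS and 0.355 at day 11 against day 4. The median change over members stayed above 0 in every comparison under all 18. It ranged from 0.16 to 0.45 at day 4, with 0.20 without background correction and 0.21 with the authors' values. It ranged from 0.39, with no filter, to 0.80 at day 11. Between day 4 and day 11 it ranged from 0.11, with no filter, to 0.55, with 0.15 for probes detected on at least 1 array. With no filter, 37 of the 47 genes had a mean above PBS at day 4, since more genes were then counted. The median over all genes moved by less than 0.1 under other scalings.

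The count of all genes past the threshold was 1 at day 11 against PBS. It was 0 with no filter, 0 with the replicate block, 0 with only the groups compared, 0 to 1 when 1 array was left out, and 11 with a prior that follows intensity, 10 of them higher. At day 11 against day 4, where it was 1, it was 0 with no filter, the replicate block or only the groups compared, 0 to 1 when 1 array was left out and 2 with that prior. The cause was not tested. Deviations of same-numbered arrays correlated between -0.0461 and 0.0628 in 9 pairs, none above 0.1, so the numbers were not taken to pair the samples. A fit with slide as a block was planned and not run, because no header or column name gives the slide.

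Among the members named by rule, the sign of an uncalled change differed from the reported one in 8 of 180 values at day 4, 4 of 180 at day 11 and 9 of 180 between them. Signal near background limits the 17 untested members and the dim tested ones, such as Mcm2, Mcm3, Tyms and Pold2, whose fold changes are understated by the offset.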
